A study of Rattus norvegicus with 6 samples.

Results

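A set of 10 nuclear genes whose products copy, transcribe or stabilise mitochondrial DNA and its RNA was followed in rat fibroblast-like synoviocytes (FLS), the lining cells of the joint, treated with TNF-α with or without emodin (EMO). They were chosen by gene name as the rows Tfam, Polrmt, Tfb1m, Tfb2m, Polg, Twnk, Lrpprc, Slirp, Ppargc1a and Nrf1, that is 10 of the 34156 genes in the deposited count table, and 9 of them had enough reads to be tested. EMO is an anthraquinone from rhubarb, and TNF-α is the cytokine used here to set up an inflamed state.

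The libraries were poly(A)-selected RNA-seq libraries of wild-type rat FLS labelled as rheumatoid arthritis cells. The TNF-α group (n = 3) received 10 ng/mL TNF-α, and the TNF-α+EMO group (n = 3) received 10 ng/mL TNF-α with 80 μmol/L EMO. Both groups therefore carried TNF-α, and untreated cells were not analysed here. The labels give day 5 for every sample, whereas the study's methods give a shorter incubation. The study's methods name a cell supplier for the rat synoviocytes, so these are cultured cells and not fresh tissue.

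Mitochondria keep a small circular genome that codes for a few subunits of the respiratory chain and for the RNAs of their own ribosome, and every protein that copies or reads this genome is encoded in the nucleus. Transcription starts when TFAM bends the promoter DNA and recruits the RNA polymerase POLRMT with TFB2M, replication is carried out by the polymerase POLG behind the helicase Twinkle, and the LRPPRC-SLIRP complex protects the finished mRNAs. The nuclear factor NRF1 and the coactivator PGC-1α (Ppargc1a) are known for switching on many of these nuclear genes together.

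The libraries held 16813322 to 17794455 counts, and 12566 to 13365 genes per library had at least 10 counts. The TNF-α+EMO replicate 3 stood apart from its group, with a mean chi-square per gene of 15.1 and 23.5 against the other TNF-α+EMO libraries. The same measure was 6.27 between those and 4.62 to 5.73 among TNF-α libraries. Some values that TNF-α+EMO replicate 3 moves are therefore also given without it. The cell type label was compared with 10 markers of FLS. Of 7 with enough reads to test, all 7 were lower with EMO, and the sum of the 10 fell from between 200432 and 220552 to between 35127 and 37808 normalized counts. Thy1 had 3 to 7 counts in the TNF-α libraries, Prg4 had 3 or 4 and Pdpn at most 1, and these and Fap had 0 in every TNF-α+EMO library, whereas Fap had 27 to 42 with TNF-α. The surface and lubricin markers Thy1, Pdpn and Prg4 were thus at or near 0 in both groups. Other markers were abundant with TNF-α and fell far. The mean normalized counts went from 20844 to 216 for Pdgfra, 2968 to 40.3 for Cdh11 and 3035 to 139 for Pdgfrb. Those of Col1a1 went from 111181 to 3709 and those of Col3a1 from 11635 to 26.7. Vim fell least of the 7, from 61464 to 32387, and made up most of the sum left with EMO. The marker lists of lymphocytes, epithelium, endothelium and skeletal muscle each summed to at most 23.5 normalized counts in any library. The 7 macrophage markers summed to between 145 and 171 normalized counts in the TNF-α group and between 256 and 282 with EMO, nearly all from Cd68, with Ptprc at 0 or 1 count, Cd163 and Tyrobp at 0, and Itgam at 0 or 1 count with TNF-α and 10 to 14 with EMO. Cd68 and Itgam were the 2 of the 7 that could be tested, and both were higher. The part of this loss of mesenchymal markers in the results was not tested. In such bulk libraries, fewer cells of a type and less RNA per cell cannot be told apart, and a fold change is relative to the other RNAs of the library.

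Before the values, the DNA in front of 4 of the genes is shown, because the promoters of this group are known for sites of shared nuclear factors and these 4 genes went different ways with EMO. Each of these 4 holds a motif marked below, unlike some of the other genes. Twnk rose most, Tfb2m rose, Polg fell and Tfam did not pass the test. The sequences are the 250 bases before the RefSeq gene start in the rat build GRCr8, read towards the gene. Capitals mark CCGGAAG or its reverse complement CTTCCGG, the core bound by the ETS factor GABP (NRF2), in Twnk, Polg and Tfam, and GCATGCGC, part of the NRF1 consensus, in Tfb2m.
Twnk, chr1:253817314-253817563 (+ strand): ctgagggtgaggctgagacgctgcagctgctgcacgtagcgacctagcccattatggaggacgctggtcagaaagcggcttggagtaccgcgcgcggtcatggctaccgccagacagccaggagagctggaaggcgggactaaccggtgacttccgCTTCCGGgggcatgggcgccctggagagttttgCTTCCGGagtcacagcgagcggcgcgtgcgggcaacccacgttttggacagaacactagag
Tfb2m, chr13:93828595-93828844 (- strand): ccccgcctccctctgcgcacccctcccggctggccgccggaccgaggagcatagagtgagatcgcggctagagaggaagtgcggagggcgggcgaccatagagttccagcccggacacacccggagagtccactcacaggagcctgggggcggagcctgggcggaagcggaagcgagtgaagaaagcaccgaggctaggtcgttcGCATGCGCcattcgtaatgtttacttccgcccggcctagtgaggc
Polg, chr1:142808839-142809088 (- strand): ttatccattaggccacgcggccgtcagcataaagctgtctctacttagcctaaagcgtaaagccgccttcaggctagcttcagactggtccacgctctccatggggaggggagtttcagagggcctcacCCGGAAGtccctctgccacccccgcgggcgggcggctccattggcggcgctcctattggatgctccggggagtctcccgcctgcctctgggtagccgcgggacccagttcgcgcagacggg
Tfam, chr20:17355123-17355372 (+ strand): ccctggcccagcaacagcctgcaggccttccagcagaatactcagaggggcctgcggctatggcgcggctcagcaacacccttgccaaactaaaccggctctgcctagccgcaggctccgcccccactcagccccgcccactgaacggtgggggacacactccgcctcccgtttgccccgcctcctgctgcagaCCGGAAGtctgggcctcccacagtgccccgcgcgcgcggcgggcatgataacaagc

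All 10 genes matched the RefSeq promoter table by symbol. CCGGAAG was in 5 of the 10 windows (Tfam, Polrmt, Polg, Twnk and Slirp), against 7.27% of all 33469 windows of the same length. Of the 5 genes that hold it, Twnk and Polrmt rose, Polg fell, and Tfam and Slirp did not pass the test. Twnk held the core at 2 places, 55 to 61 and 88 to 94 bases before the start. GCATGCGC was in 1 of the 10 windows (Tfb2m, 38 to 45 bases before the start) and in 2.20% of all windows. For every motif only the exact letters given here were searched, so other forms of a site would be missed. The YY1 core AAGATGGCG was in the Slirp window alone and in 0.693% of all windows, and TCAAGGTCA, bound by oestrogen-related receptors, was in none of the 10 and in 0.388% of all windows. The windows of Lrpprc, Tfb1m, Nrf1 and Ppargc1a held no searched motif, and of these genes Lrpprc, Tfb1m and Nrf1 rose. Whether a motif bears on the response of a gene was not tested. All motifs were searched on both strands, their matches in the 10 windows do not overlap, the choice of motifs was made after some of these sequences had been read, and a match is a description of the letters only.

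With EMO, 6 of the 9 tested factors rose, 1 fell and 2 did not pass the test (edgeR's quasi-likelihood test, adjusted p under 0.05 over all 13614 genes tested). Twnk had the largest increase, 2.68-fold, followed by Lrpprc, Tfb1m, Polrmt, Tfb2m and Nrf1, between 1.95-fold and 1.38-fold. Polg was lower, and Tfam and Slirp did not pass. Among all genes tested, 80.9% passed in either direction, so the 7 of 9 that passed (77.8%) is close to the share of any gene in this comparison. In direction, 39.4% of all genes passed as higher and 41.4% as lower. Over the 9 factors the log2 fold changes had a median of 0.59, and over all genes tested of -0.01. Twnk was the 1 factor that passed with a change over 2-fold, and it rose, whereas 47.3% of all genes did so, 19.5% as higher and 27.8% as lower. The libraries of the groups did not overlap in 7 factors (6 higher, 1 lower), compared with 82.9% of all genes (40.3% higher, 42.5% lower). Without TNF-α+EMO replicate 3, 8 of the 9 passed, as Slirp joined Polg among the lower genes, and 2 were over 2-fold, as Lrpprc passed that line.

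**Figure D1:**
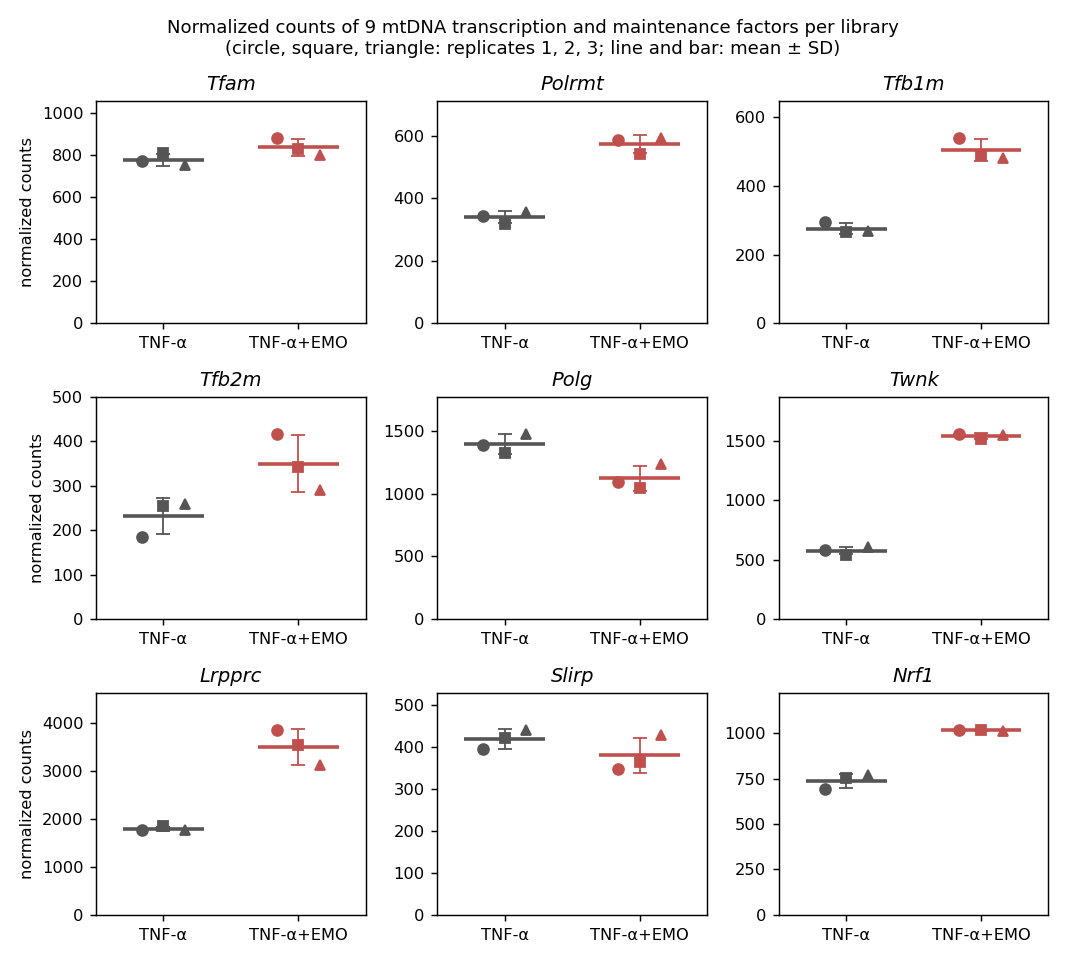
Normalized counts (y axis, from 0) of the 9 tested factors in each library of the TNF-α (grey) and TNF-α+EMO (red) groups, with replicates 1, 2 and 3 as circle, square and triangle and the mean ± SD as line and bar. The groups are apart in all panels except Tfam and Slirp, and Polg is the 1 separated factor that is lower with EMO.

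Among the initiation factors, the polymerase rose while the DNA-bending factor did not pass the test. Polrmt (chromosome 7, 12840938 to 12851153 in the deposited coordinates, Rnor_6.0), the single-subunit mitochondrial RNA polymerase, had 343, 319 and 358 normalized counts under TNF-α alone and 587, 541 and 594 under TNF-α+EMO. Every TNF-α+EMO library was above every TNF-α library. The increase was 1.69-fold, a log2 change of 0.76 ± 0.09 (SE, adjusted p = 1.2e-05).

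Tfam (chromosome 20, 18594037 to 18606151), which packages mitochondrial DNA and bends its promoters, had 769.99, 810.4 and 754 normalized counts with TNF-α and 882, 828 and 799 with TNF-α+EMO. The highest TNF-α library lay above the lowest TNF-α+EMO library, so the groups overlapped. The log2 fold change of Tfam was 0.10 (95% interval -0.07 to 0.27, adjusted p = 0.23), which bounds any increase at this depth but does not show that the level was equal. Its adjusted p ranged from 0.098 to 0.47 over the 13 alternative settings.

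Tfb2m and Tfb1m are relatives of bacterial rRNA methyltransferases. TFB2M became the factor that melts the promoter for POLRMT, and TFB1M methylates the small ribosomal RNA of mitochondria. Tfb1m (chromosome 1, 44433116 to 44474674) had 294, 265 and 268 normalized counts with TNF-α and 540.5, 489 and 482 with TNF-α+EMO. It rose 1.83-fold, a log2 change of 0.87 ± 0.09 (SE, adjusted p = 6.5e-06). Tfb2m (chromosome 13, 97820493 to 97838228) had 185, 254 and 258 normalized counts with TNF-α and 417, 342 and 290.3 with TNF-α+EMO. The groups did not overlap, but among the 9 tested factors Tfb2m had the largest spread, with a coefficient of variation of 17.5% and 18.2% in the TNF-α and TNF-α+EMO groups, and its log2 fold change of 0.59 had the largest standard error of the 9 (0.16, adjusted p = 0.0067). The log2 fold change of Tfb2m ranged from 0.44 to 0.71 over the alternative settings and passed in each of the 13. The value of 0.71 was that without TNF-α+EMO replicate 3.

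The factors of replication went in opposite directions. Twnk (chromosome 1, 264756499 to 264762892) encodes Twinkle, the helicase that unwinds mitochondrial DNA ahead of the polymerase. It had 585, 539 and 602 normalized counts with TNF-α and 1558, 1511 and 1548 with TNF-α+EMO. The lowest TNF-α+EMO library was far above the highest TNF-α library, and the increase was 1.42 ± 0.07 in log2 units (SE, adjusted p = 1.1e-08), higher than that of 88.2% of all genes tested. Its interval, 1.26 to 1.58, lies wholly above a 2-fold change.

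Polg (chromosome 1, 141172531 to 141188031), the catalytic subunit of the mitochondrial DNA polymerase, had 1391, 1327 and 1481 normalized counts with TNF-α and 1093, 1044 and 1239 with TNF-α+EMO. The highest TNF-α+EMO library was below the lowest TNF-α library. Polg fell by 0.31 ± 0.08 in log2 units (SE, adjusted p = 0.0041). It was the only 1 of the 9 factors to pass as lower in the comparison of all 6 libraries.

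LRPPRC and SLIRP form a complex that binds mitochondrial mRNAs and keeps them from decay. Lrpprc rose, and Slirp did not pass the test. Lrpprc (chromosome 6, 7984019 to 8066868) had 1777, 1847 and 1767 normalized counts with TNF-α and 3865, 3537 and 3119 with TNF-α+EMO. It rose 1.95-fold, a log2 change of 0.96 ± 0.08 (SE, adjusted p = 6.2e-07). Replicate 3 was the lowest of the TNF-α+EMO libraries, and without it the log2 fold change of Lrpprc was 1.04.

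Slirp (chromosome 6, 111476768 to 111486039) had 393, 420.3 and 440.3 normalized counts with TNF-α and 348, 363 and 427 with TNF-α+EMO. TNF-α+EMO replicates 1 and 2 were below all TNF-α libraries and replicate 3 was not. The log2 fold change of Slirp was -0.14 (95% interval -0.37 to 0.09, adjusted p = 0.23), and without TNF-α+EMO replicate 3 it was -0.23 (adjusted p = 0.038). The call for Slirp therefore depends on 1 library.

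Of the nuclear regulators, Nrf1 was measured and Ppargc1a was not detectable. Nrf1 (chromosome 4, 57378069 to 57445341), nuclear respiratory factor 1, which binds the promoters of many respiratory genes, had 695, 752 and 771 normalized counts with TNF-α and 1020.1, 1018 and 1014 with TNF-α+EMO. It rose 1.38-fold, a log2 change of 0.46 ± 0.07 (SE, adjusted p = 1.4e-04), with every TNF-α+EMO library above every TNF-α library. Ppargc1a (chromosome 14, 63095720 to 63187009), which encodes PGC-1α, had raw counts of 1, 1 and 0 with TNF-α and 0, 1 and 0 with TNF-α+EMO. All 6 libraries were under the floor of 3 counts, which is 0.169 to 0.178 CPM (counts scaled to library size), so no fold change is given and a difference was not detectable at this depth.

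**Figure D2:**
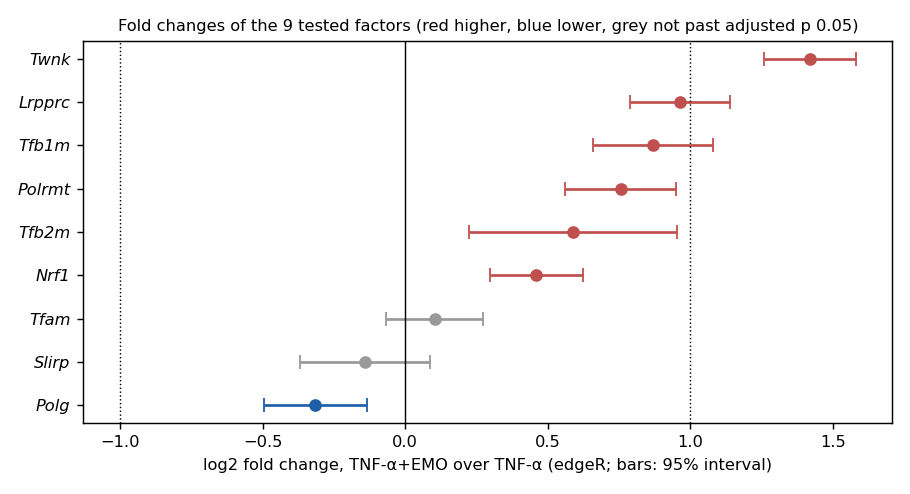
Log2 fold change of each tested factor (x axis, TNF-α+EMO over TNF-α) with its 95% interval from edgeR, the dotted lines marking a 2-fold change. Twnk lies wholly beyond 2-fold at 1.42, the intervals of Lrpprc and Tfb1m cross that line, and those of Tfam and Slirp cross 0.

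Of the 10 factors, 3 overlap another gene in the deposited coordinates. The strand setting of the counting is not given in the sources used here, so reads in shared bases could have gone to either gene or to none. Shared bases were taken between gene start and gene end, introns included, so their effect on the counts is not shown. Twnk shares 48 bases with Mrpl43, a mitochondrial ribosomal protein gene read from the opposite strand. Mrpl43 also rose, from a mean of 1085 ± 48.3 (SD, n = 3) to 2602 ± 645 normalized counts, a log2 change of 1.26 (adjusted p = 2.5e-04), or 1.05 without TNF-α+EMO replicate 3. Tfb1m shares 78 bases with Tiam2 on the opposite strand, whose log2 fold change was -2.22 (adjusted p = 1.5e-09), the reverse of Tfb1m, and it also contains Cldn20, which had at most 4 counts. Slirp shares 323 bases with Alkbh1 and 2337 bases with Snw1, both on the opposite strand. Alkbh1, a DNA and tRNA demethylase gene, rose by a log2 fold change of 1.35 (adjusted p = 3.2e-08), and Snw1, a splicing factor gene, by 0.45 (adjusted p = 3.9e-05), so the overlapping neighbours of Slirp rose while Slirp itself did not pass the test. A small nuclear RNA row inside Slirp had at most 3 counts. The other 7 factors overlap no listed gene.

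The levels of different factors were compared as normalized CPM per kilobase (kb) of deposited gene length, which the file does not define further. With TNF-α, Tfam had the highest level, 29.8 ± 1.11 (SD, n = 3), followed by Lrpprc at 24.2 ± 0.584 and Polg at 20.1 ± 1.11. Nrf1 (12.2 ± 0.648), Tfb1m (10.1 ± 0.589), Twnk (9.30 ± 0.524) and Slirp (8.64 ± 0.487) were in the middle, and the libraries of Twnk and Slirp overlapped. Tfb2m (6.54 ± 1.15) and Polrmt (5.28 ± 0.304) were lowest of the detected factors and overlapped each other. The order changed with EMO. Lrpprc came first at 47.2 ± 5.03 per kb, ahead of Tfam at 32.0 ± 1.62, and Twnk rose from the sixth place to the third at 24.9 ± 0.401. Polg went from the third place to the sixth at 16.2 ± 1.46, overlapping Nrf1 at 16.8 ± 0.0558. Tfb1m was at 18.5 ± 1.17, Tfb2m at 9.84 ± 1.79, Polrmt at 8.92 ± 0.444 and Slirp at 7.84 ± 0.867 per kb, and the last 3 were neighbours whose libraries overlapped. Measured this way, the helicase mRNA lay below the polymerase mRNA without EMO and above it with EMO.

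**Figure D3:**
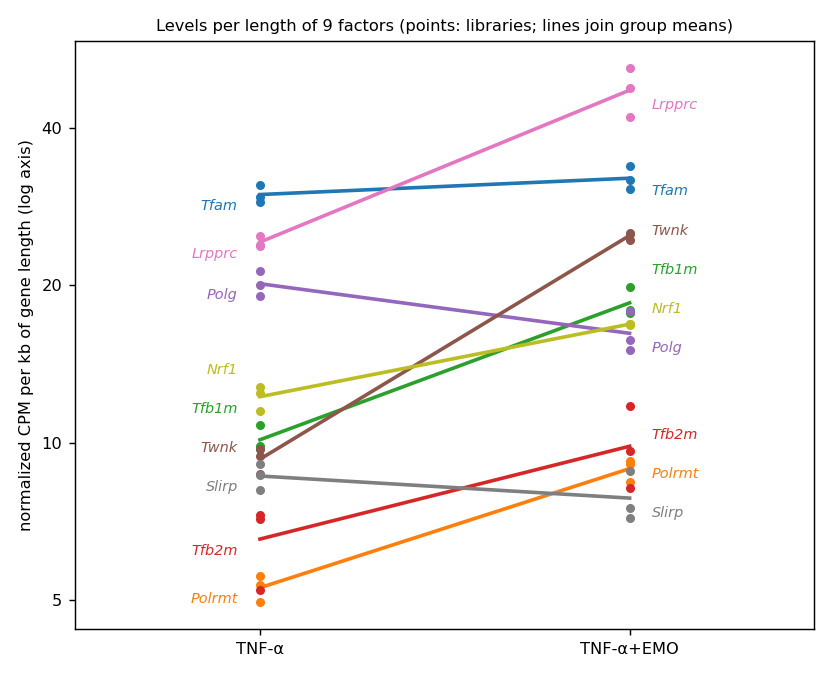
Level of each detected factor (y axis, normalized CPM per kb, log axis) in the TNF-α and TNF-α+EMO groups, with points for libraries and lines joining group means. The lines of Twnk and Polg cross, from 9.30 and 20.1 to 24.9 and 16.2, and Lrpprc passes Tfam.

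Ratios of counts within a library do not depend on how libraries are scaled, and 4 such pairs were compared by two-sided exact permutation tests over the 3 against 3 libraries, where the smallest possible p is 0.1 and no pair can pass. The ratio of Polg to Twnk counts was 2.38, 2.46 and 2.46 with TNF-α and 0.702, 0.691 and 0.8 with TNF-α+EMO. The groups were fully apart, with a difference in mean log2 ratio of -1.74 (exact p = 0.1, 0.13 adjusted over the 4 pairs). The ratio of Lrpprc to Slirp was 4.52, 4.39 and 4.01 with TNF-α and 11.1, 9.74 and 7.31 with TNF-α+EMO, a difference in mean log2 ratio of 1.10 (exact p = 0.1, adjusted p = 0.13). In every library with EMO this ratio of partners in 1 protein complex was above that of every TNF-α library. The ratio of Tfam to Polrmt was 2.24, 2.54 and 2.11 with TNF-α and 1.50, 1.53 and 1.34 with TNF-α+EMO, a difference in mean log2 ratio of -0.65 (exact p = 0.1, adjusted p = 0.13). The paralogs did not separate. The ratio of Tfb2m to Tfb1m was 0.63, 0.956 and 0.964 with TNF-α and 0.771, 0.699 and 0.603 with TNF-α+EMO, a difference in mean log2 ratio of -0.28 (exact p = 0.3, adjusted p = 0.3). The overlap came from TNF-α replicate 1, and without that library the difference was -0.48 (exact p = 0.1). It was -0.18 (exact p = 0.6) without TNF-α replicate 2, without TNF-α replicate 3 or without TNF-α+EMO replicate 3. Without TNF-α+EMO replicate 1 or 2 it was -0.36 or -0.29 (exact p = 0.3 each).

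**Figure D4:**
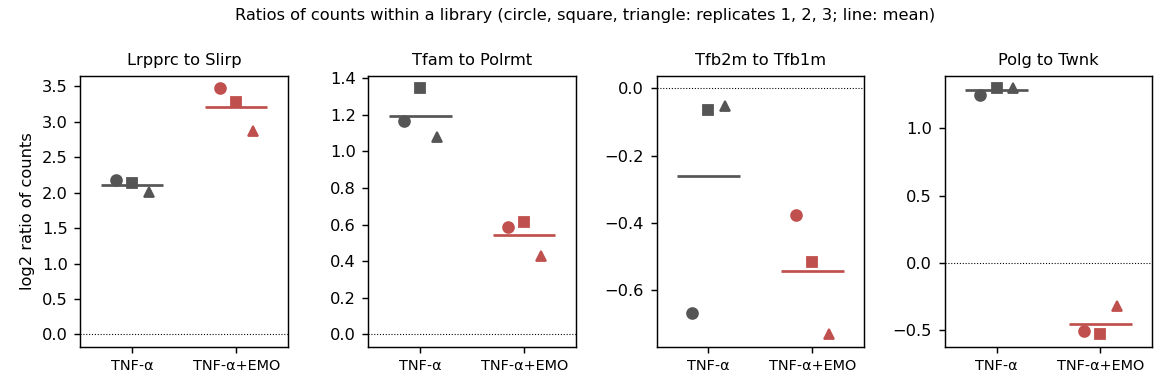
Log2 ratio of raw counts (y axis, separate scale in each panel) for 4 pairs of factors in each library, grey for TNF-α and red for TNF-α+EMO, with a line at each group mean and a dotted line at equal counts. Polg to Twnk crosses from a mean of 1.28 to -0.46, Lrpprc to Slirp goes from 2.11 to 3.21, and Tfb2m to Tfb1m overlaps.

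Other genes of the same system were read from 4 lists of 69 genes in all, of which 61 could be tested. In these lists 29 genes rose, 20 fell and 12 did not pass, a share called of 80.3% beside 80.9% of all genes tested, where 39.4% were higher and 41.4% lower. The replication and nucleotide supply list had 18 tested genes, of which 9 rose, 5 fell and 4 did not pass, with a median log2 fold change of 0.36. Polg2, the accessory subunit that holds the polymerase on DNA, had 150.1, 141 and 146 normalized counts with TNF-α and 489.9, 451 and 485 with TNF-α+EMO, a log2 change of 1.70 ± 0.10 (SE, adjusted p = 3.7e-08). The accessory subunit therefore rose while the catalytic subunit Polg fell. Tk2, the mitochondrial thymidine kinase, rose by a log2 fold change of 1.59 (adjusted p = 7.2e-07). Samhd1, which breaks down deoxynucleotides, fell by 3.20 in log2 units, with means of 303 ± 19.9 and 32.8 ± 0.911 normalized counts without and with EMO (SD, n = 3 each, adjusted p = 5.5e-09). Primpol, a primase-polymerase that restarts stalled replication, fell by 2.13 (adjusted p = 1.9e-06).

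In the list of transcription elongation and termination, 4 of 5 tested genes rose, none fell and Mterf2 did not pass (log2 fold change -0.45, adjusted p = 0.25), with a median log2 fold change of 0.73. That is 80.0% called in a list of 5, beside 80.9% of all genes tested (39.4% higher, 41.4% lower). Tefm, the elongation factor of POLRMT, had 136, 124 and 118 normalized counts with TNF-α and 229, 267 and 278 with TNF-α+EMO. It rose with a log2 change of 1.03 ± 0.14 (SE, adjusted p = 3.4e-05). In the list of mitochondrial RNA processing and decay, 13 of 23 tested genes rose, 6 fell and 4 did not pass, with a median of 0.32, and the share called was 82.6% beside the same 80.9%. The FASTK family members Fastkd2 and Fastkd1, RNA-binding proteins of mitochondria, had the highest named log2 fold changes of this list, 2.05 (adjusted p = 1.2e-06) and 1.84 (adjusted p = 9.9e-08), or 2.20 and 1.93 without TNF-α+EMO replicate 3. Ptcd3, a pentatricopeptide protein of the mitochondrial ribosome, had means of 1593 ± 57.7 and 587 ± 39.7 normalized counts (SD, n = 3 each) and so fell, with a log2 change of -1.44 (adjusted p = 1.5e-08). Ptcd1, also a pentatricopeptide protein, fell by 0.81 (adjusted p = 1.6e-04), and by 0.97 without that library.

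Of 15 tested genes in the list of nuclear regulators of mitochondrial genes, 3 rose, 9 fell and 3 did not pass, with a median log2 fold change of -0.40. The share called, 80.0%, is close to the 80.9% of all genes tested, of which 39.4% were higher and 41.4% lower. Gabpb1, the partner that lets the DNA-binding subunit of GABP activate transcription, had 400.2, 409 and 383 normalized counts with TNF-α and 167, 199.5 and 174 with TNF-α+EMO. It fell by 1.14 ± 0.11 in log2 units (SE, adjusted p = 2.5e-06). Gabpa, the DNA-binding subunit itself, did not pass (log2 fold change -0.11, adjusted p = 0.26). Kat2a, an acetyltransferase that acts on PGC-1α, fell by 1.48 (adjusted p = 6.2e-09). Ppargc1b had low raw counts, 27, 28 and 26 with TNF-α and 3, 6 and 9 with TNF-α+EMO. It fell by 2.08 in log2 units (adjusted p = 6.2e-04). Esrra, an orphan nuclear receptor that works with PGC-1α, had 1209, 1052 and 1066 normalized counts with TNF-α and 2836, 3022 and 4746 with TNF-α+EMO. Esrra rose with a log2 change of 1.67 ± 0.22 (SE, adjusted p = 7.0e-04), and by 1.40 without TNF-α+EMO replicate 3, the highest library. Prkaa2, a catalytic subunit of the energy sensor AMPK, rose by a log2 fold change of 0.81 (adjusted p = 0.0034). The other catalytic subunit gene, Prkaa1, was more abundant and fell by 0.64 (adjusted p = 1.1e-04). The mean of Prkaa1 went from 1091 to 698 normalized counts, and that of Prkaa2 from 79.4 to 139.

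**Figure D5:**
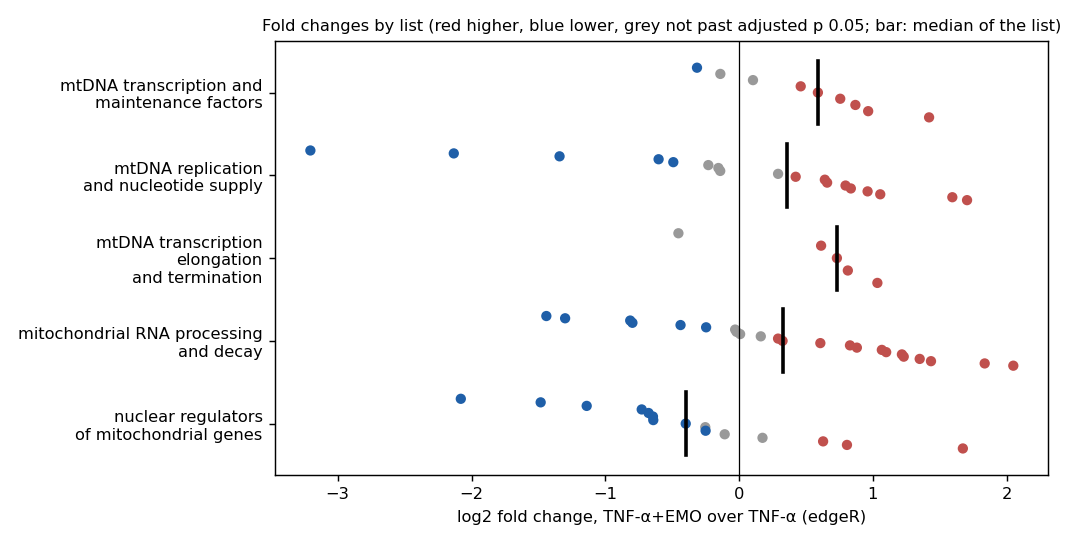
Log2 fold change (x axis, TNF-α+EMO over TNF-α) of every tested gene in 5 lists, each point 1 gene coloured by its edgeR call and each black bar the median of its list. The medians are 0.59, 0.36, 0.73 and 0.32 for the first 4 lists and -0.40 for the nuclear regulators.

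The RNAs these factors make and protect were counted in the same libraries. The 13 mitochondrially encoded mRNAs took 3.45% ± 0.114 of all counts with TNF-α and 0.200% ± 0.0122 with TNF-α+EMO (SD, n = 3 each), while the 2 mitochondrial rRNAs took 0.0227% ± 0.00164 and 0.180% ± 0.00682. The 22 mitochondrial tRNA rows took 0.00168% and 9.7e-05%, with at most 364 counts in any library. The mRNAs and tRNAs were thus a smaller and the rRNAs a larger share of counts with EMO. As the libraries were poly(A)-selected, these shares also depend on how well each RNA was captured, which was not tested. With mitochondrial rows left out of the table and the library sizes, 6 factors rose, 1 fell and 2 did not pass, as before.

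Finally, the genes whose pattern over the 6 libraries was most like Tfam and Polrmt were found among 9403 other named genes with a mean of at least 100 normalized counts. Likeness was the root mean square difference of log2 normalized counts after centring each gene on its own mean. Nearest to Tfam were Supt6h (0.017), Zfp91 (0.024) and Med19 (0.024), none of which passed the test. Nearest to Polrmt were Sbds (0.023), Ap3s2 (0.024) and Rnf13 (0.033), with log2 fold changes of 0.75, 0.75 and 0.78. These genes were picked for that likeness, so fold changes near those of Tfam and Polrmt follow from the choice. None of the 6 is on the 4 lists, whose 61 tested genes are few beside the 9403 compared.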

How the data were processed

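RNA of 6 rat FLS samples was sequenced, and 3 TNF-α+EMO and 3 TNF-α libraries were grouped by the treatment label. The authors aligned cleaned paired-end reads with HISAT2 (FastQC, Trimmomatic and Rnor_6.0 are named in the submitters' processing notes) and deposited raw counts per gene. The counting program, annotation release and strand setting are not given in the sources used here. The deposited FPKM values and the authors' own comparison (group means, fold change, p-values) were not used.

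The 13614 genes that reached 10 counts in 3 or more libraries were normalized by TMM and compared with edgeR 4.0.16 in R 4.3.3 (robust quasi-likelihood F test, no block, Benjamini-Hochberg adjustment over all genes tested). The study's methods name DEseq, so DESeq2 1.42.0 was run as well. Normalized counts are counts scaled to the mean effective library size (TMM). The standard error is the log2 fold change divided by the root of F. Depth gives a floor of 3 counts per library, which covers counting error only. The methods describe 3 biological replicates per condition. The labels do not tie libraries to separate cultures, so p-values measure the spread between these libraries.

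Same-numbered libraries correlated in their deviations from the group means by -0.0038 to 0.062, none over 0.1. This gave no sign that the numbers pair the samples, but it does not exclude a shared culture or batch behind a number. The members and lists were chosen with earlier results of these data known. Named genes are the 10 factors and, per list, the 2 highest and 2 lowest log2 fold changes (1 and 1 in the shortest list) among genes past adjusted p 0.05, with a mean of at least 100 normalized counts and no overlap. Mterf2, Gabpa, Prkaa1, Ppargc1b, overlapping genes and marker genes are named besides. No gene of the shortest list could be named as lower. Of the listed genes, Dna2, Fastkd5, Trmt61b, Sirt1, Col1a2 and Pecam1 were not analysed here, and Nsun4, Esrrb, Esrrg and Pparg had too few counts to test. Promoter sequences are from RefSeq.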

Additional observations from a re-analysis of the deposited data

How the results depend on the processing

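Over 13 alternatives (DESeq2, RLE and upper-quartile scaling, no mitochondrial rows, a looser and a stricter count filter, the replicate block and leaving out each library in turn), 9737 to 11831 genes passed in all, and 6 factors passed as higher in each. Between 46 and 51 genes of the 4 lists passed. With the replicate block, 10806 genes, 7 factors and 50 list genes passed, and the block changed no call of a factor. Leaving out 1 library at a time gave 1 to 2 factors lower and 1 to 2 over 2-fold. The higher values came without TNF-α+EMO replicate 3, where Slirp passed (log2 fold change -0.23, adjusted p = 0.038) and Lrpprc reached 1.04. The cause was not tested. No other call of a factor changed, and no fold change of a factor changed sign. Adjusted p reached at most 0.027 for Polg and 0.033 for Tfb2m. The differences in log2 ratio kept their sign, from -1.81 to -1.70 for Polg to Twnk, 0.97 to 1.27 for Lrpprc to Slirp, -0.71 to -0.58 for Tfam to Polrmt and -0.48 to -0.18 for Tfb2m to Tfb1m. Depth left Ppargc1a undetectable.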

Other observations

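Within the TNF-α+EMO group, replicate 3 was the most different library, and some of the genes above show this, chosen after their values were seen and given as values only. Esrra had 4746 normalized counts there against 2836 and 3022, and Mrpl43, the neighbour of Twnk, had 3333 against 2112 and 2361. Fastkd2 had 720.2 normalized counts there against 1053 and 998, and Lrpprc 3119 against 3865 and 3537. Twnk (1548 normalized counts against 1558 and 1511) and Nrf1 (1014 against 1020.1 and 1018) differed little between these libraries.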
